A study of Mus musculus with 10 samples.

Results

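The 10 receptor genes described here encode the type I and type II serine/threonine kinase receptors of bone morphogenetic proteins (BMPs), activins and TGF-beta. They were chosen by symbol, and all 10 were found among the 14300 genes of the table of read counts. The libraries came from mouse embryos on the C57BL/6J background that carried Grem1creERT, a tamoxifen-inducible Cre recombinase under Grem1 regulatory sequence, and the Cre-dependent reporter Rosa26LSLTdtomato. Dams received tamoxifen at embryonic day E13.5, and 24 h later, at E14.5, the brains of the embryos were dissociated and live cells were sorted into TdTomato+ cells, in which the Grem1 sequence had been active, or their progeny, and TdTomato- cells, the rest of the tissue. Both populations shared the genotype and the tamoxifen. There were 5 libraries of each population, one of each kind from each of mice 2 to 6, and the totals ran from 23429034 to 24545138 counts for TdTomato+ cells and from 23542791 to 27286180 for TdTomato- cells. The TdTomato- population is a mixture, and Cre labels a cell only when tamoxifen is present, so a cell with Grem1 activity at another time can be in the TdTomato- gate.

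Ligands of this family bring together a pair of type II receptors and a pair of type I receptors. The type II kinase, which is active without ligand, phosphorylates the type I receptor, and the type I receptor phosphorylates a receptor-regulated Smad. Acvr1 (ALK2), Bmpr1a (ALK3) and Bmpr1b (ALK6) are the type I receptors that act on Smad1, Smad5 and Smad9, the BMP branch. Acvr1b (ALK4), Acvr1c (ALK7) and Tgfbr1 (ALK5) act on Smad2 and Smad3, the activin and TGF-beta branch. Bmpr2 binds BMPs, Acvr2a and Acvr2b bind activins and BMPs, and Tgfbr2 binds TGF-beta. In the early forebrain BMPs promote dorsal fates, and Grem1 is a secreted antagonist that binds BMPs and keeps them from their receptors.

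Grem1 itself, which checks the sort, had 63.3 ± 3.10 CPM (read counts scaled to library size; mean ± SD, n = 5) in TdTomato+ and 6.11 ± 0.731 CPM in TdTomato- libraries. The 8 neuronal marker genes were all higher in TdTomato+ libraries (summed 13800 to 15100 against 5880 to 6920 CPM). The 8 progenitor markers (134 to 192 against 1840 to 2240 CPM) and the 5 GABAergic markers (31.9 to 45.3 against 1100 to 1440 CPM) were all lower. For microglia 6 of 6 measured markers (7 listed) were lower, for erythroid cells 5 of 5 (6 listed) and for pericytes 3 of 4 (6 listed). For endothelium 1 of 3 (8 listed) and for meninges 1 of 2 (6 listed) were lower, too few genes to describe these cells. None of these markers passed the test as higher. Over all genes, 37.9% were higher and 39.4% were lower. Most microglial markers were in the table only through TdTomato- libraries, so they could only come out as lower. The populations thus differed in markers of several cell types, and whether a transcript was lower because fewer cells made it or because each cell made less cannot be told apart in such bulk samples.

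Of the 10 receptors, 5 were higher in TdTomato+ cells, 3 were lower and 2 passed in neither direction (edgeR quasi-likelihood test with the mouse as a block, p adjusted over the whole table and called at 0.05). Acvr1, Acvr1b, Acvr1c, Acvr2a and Bmpr2 rose, and Acvr2b, Bmpr1a and Tgfbr2 fell. Over all genes, 37.9% were higher and 39.4% were lower, so a receptor that passed this threshold was not unusual. Only Tgfbr2 also reached a log2 fold change of at least 2 in size, a pair of thresholds that 12.9% of all genes met. Tgfbr2 was in the table only through its TdTomato- libraries, so it could pass only as lower. The libraries of the 2 populations did not overlap in CPM for 5 receptors (Acvr1b and Acvr1c higher, Acvr2b, Bmpr1a and Tgfbr2 lower), against 61.6% of all genes. The median log2 fold change was 0.10 for the receptors and -0.0063 for all genes, and the median of its size was 0.70 and 0.504.

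**Figure D1:**
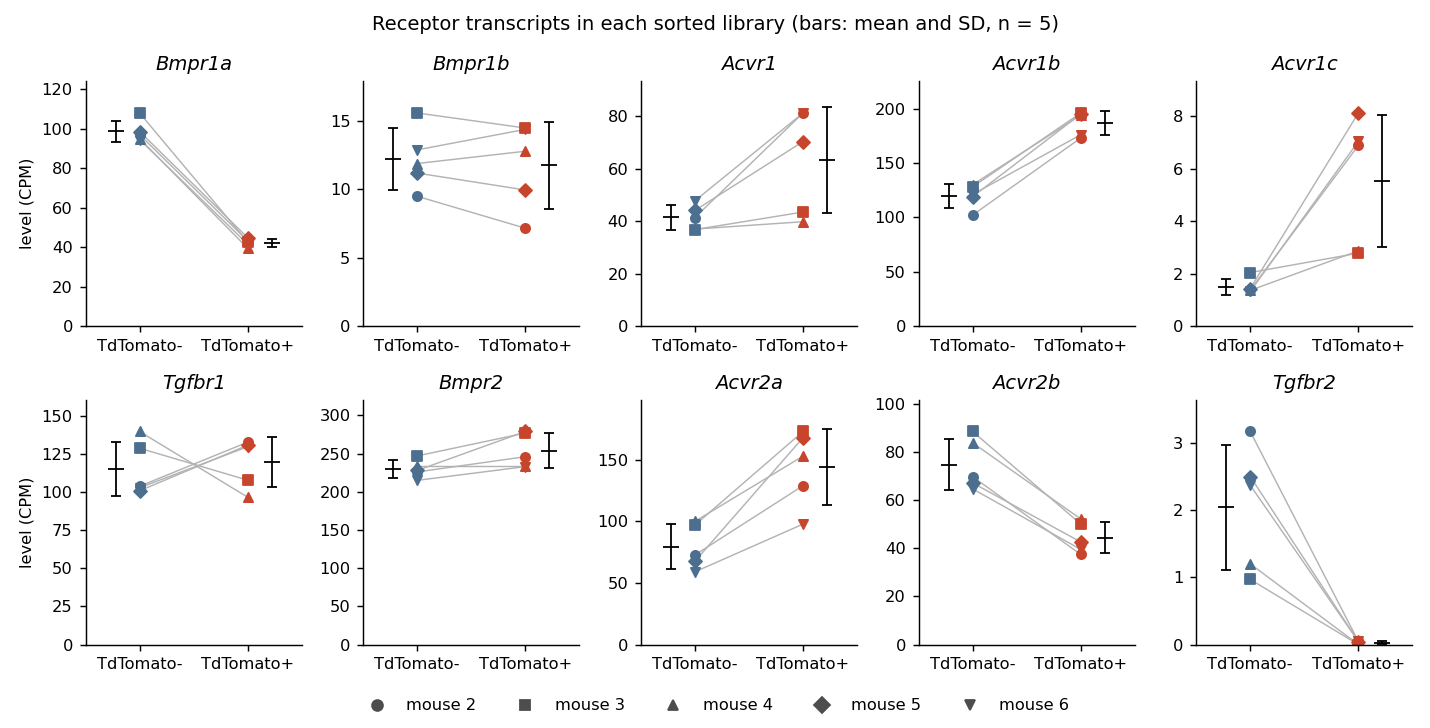
Level of each receptor transcript in the 10 libraries, in CPM on linear axes that start at 0. Grey lines join the libraries of a mouse, symbols mark mice, and the bars beside the points are the mean and SD over 5 libraries. The populations are apart for Bmpr1a, Acvr1b, Acvr1c, Acvr2b and Tgfbr2, and the lines of mice 3 and 4 run against those of mice 2, 5 and 6 for Tgfbr1.

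**Figure D2:**
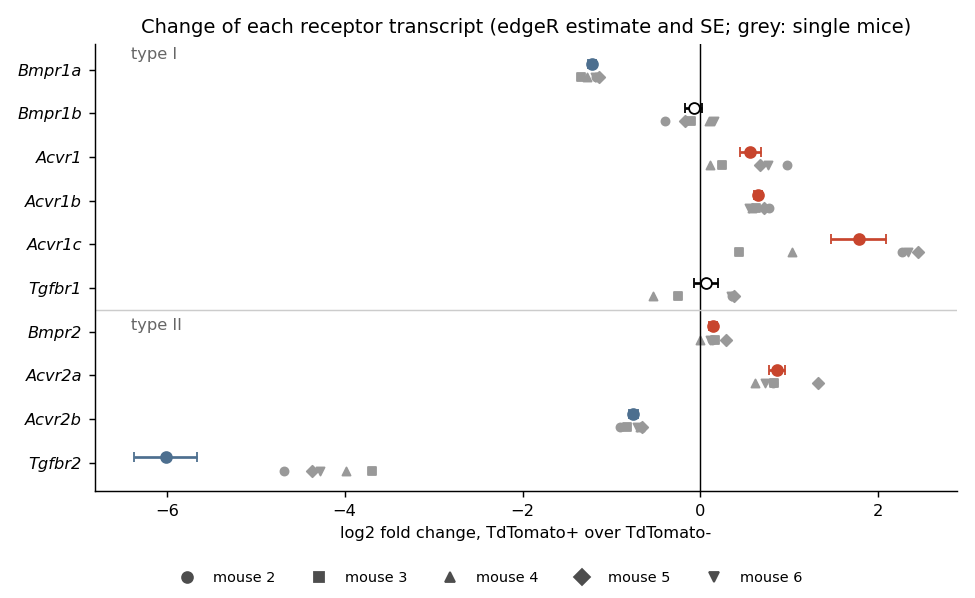
Log2 fold change of each receptor, TdTomato+ over TdTomato-, with its standard error from edgeR (red higher, blue lower, open symbols not past the threshold). Grey symbols are the differences in single mice on log2 CPM with a prior count of 2, which pulls Tgfbr2 toward 0, and Acvr1c ranges from 0.43 to 2.45 between mice.

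Among the BMP type I receptors, Bmpr1a fell and Acvr1 rose, whereas Bmpr1b did not pass. Bmpr1a (GRCm38 chr14:34410734-34503341, minus strand), a widely expressed BMP receptor, had 43.2, 42.6, 39.4, 44.8 and 41.5 CPM in the TdTomato+ libraries of mice 2 to 6. In the TdTomato- libraries it had 97, 108, 95, 98.6 and 94.5 CPM. Every TdTomato- library was above every TdTomato+ library, and the libraries of a population lay close together. The log2 fold change was -1.22 (s.e. 0.05, adjusted p = 2.9e-08), and it was -1.34 to -1.14 in single mice. The progenitor markers, whose summed levels are given above, were lower in the same libraries, and their part in this result was not tested.

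Bmpr1b (chr3:141837136-142169425, minus strand), the paralogue of Bmpr1a with a narrower expression, was at a lower level in both populations. Its mean was 11.8 ± 3.16 CPM in TdTomato+ and 12.2 ± 2.26 CPM in TdTomato- libraries. On the log2 CPM scale it had 2.86, 3.86, 3.69, 3.33 and 3.85 in TdTomato+ libraries of mice 2 to 6 and 3.26, 3.97, 3.59, 3.49 and 3.7 in TdTomato- libraries. The populations overlapped, with a higher value in the TdTomato+ library in 2 of 5 mice, and the log2 fold change was -0.08 (s.e. 0.09, adjusted p = 0.48). The log2 ratio of Bmpr1a to Bmpr1b went from 3.02 (2.79 to 3.34) in TdTomato- to 1.89 (1.53 to 2.58) in TdTomato+ libraries. This was a difference of -1.14 ± 0.26 (SD, n = 5), negative in every mouse.

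Acvr1 (chr2:58388644-58567157, minus strand), the third BMP type I receptor, had 81.3, 43.5, 39.8, 70.4 and 81.3 CPM in TdTomato+ libraries of mice 2 to 6. Its TdTomato- levels were 41.4, 36.8, 37, 44.1 and 47.8 CPM. The TdTomato+ library was the higher in all 5 mice, by 0.97, 0.24, 0.11, 0.67 and 0.76 on the log2 CPM scale. Mice 3 and 4 moved least, and their TdTomato+ levels fell within the range of the TdTomato- libraries. The log2 fold change was 0.56 (s.e. 0.12, adjusted p = 0.002).

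The sequences upstream of the first RefSeq start of Bmpr1a and Bmpr1b are shown because this pair differed both in level and in change. Those of Acvr2a and Acvr2b follow because these changed in opposite directions. Each is 250 bases long, 5′ to 3′ on the strand of the gene, from GRCm38.p6, with CpG dinucleotides in capitals.

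Bmpr1a, chr14:34502547-34502796, minus strand: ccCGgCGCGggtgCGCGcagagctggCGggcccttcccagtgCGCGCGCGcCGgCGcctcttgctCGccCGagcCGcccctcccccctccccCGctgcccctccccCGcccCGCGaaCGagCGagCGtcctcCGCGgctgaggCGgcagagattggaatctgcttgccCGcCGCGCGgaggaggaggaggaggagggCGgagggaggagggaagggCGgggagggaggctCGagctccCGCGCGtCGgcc
Bmpr1b, chr3:141982265-141982514, minus strand: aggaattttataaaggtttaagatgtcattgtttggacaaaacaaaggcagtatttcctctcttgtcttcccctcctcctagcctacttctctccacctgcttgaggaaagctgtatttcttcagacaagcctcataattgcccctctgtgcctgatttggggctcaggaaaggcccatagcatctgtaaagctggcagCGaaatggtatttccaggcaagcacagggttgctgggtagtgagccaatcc
Acvr2a, chr2:48813859-48814108, plus strand: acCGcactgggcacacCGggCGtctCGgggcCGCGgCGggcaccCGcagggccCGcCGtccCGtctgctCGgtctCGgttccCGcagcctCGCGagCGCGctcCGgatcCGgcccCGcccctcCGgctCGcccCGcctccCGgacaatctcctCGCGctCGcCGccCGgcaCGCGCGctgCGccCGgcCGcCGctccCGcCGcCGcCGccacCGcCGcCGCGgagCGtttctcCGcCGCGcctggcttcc
Acvr2b, chr9:119401928-119402177, plus strand: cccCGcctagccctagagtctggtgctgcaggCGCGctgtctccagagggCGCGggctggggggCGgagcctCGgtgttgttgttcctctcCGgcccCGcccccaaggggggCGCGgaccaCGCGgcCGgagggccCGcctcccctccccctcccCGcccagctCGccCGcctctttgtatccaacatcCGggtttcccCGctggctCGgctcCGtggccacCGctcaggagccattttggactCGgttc

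The window of Bmpr1a held 36 CpGs and 78.8% G and C bases, and that of Bmpr1b held 1 CpG and 46.8%. The windows of Acvr2a and Acvr2b were both rich in CpG, with 49 and 24. The first RefSeq starts of Acvr1, Acvr1b, Acvr1c, Acvr2b, Bmpr1a, Bmpr1b and Bmpr2 lie inside the genes as GENCODE draws them, and the GENCODE starts further upstream were not examined. For Bmpr1b the window lies deep inside the gene, at chr3:141982265-141982514, whereas the GENCODE gene begins at 142169425 on the minus strand. The contrast between Bmpr1a and Bmpr1b therefore holds for these 2 windows only. The median of 32851 such mouse windows was 6 CpGs and 52.4%. RefSeq gave 14 starts for the 10 receptors. The first start of each receptor other than Bmpr1b (1 CpG) and Tgfbr2 (12 CpGs, 58.4%) had 22 to 49 CpGs. The GC box GGGCGG, searched on both strands, was present 4 times for Bmpr1a, 2 times for Acvr2a and 3 times for Acvr2b, was not found for Bmpr1b or Tgfbr2, and occurred in 32.7% of all windows. The E box CANNTG was present 2 times in the first window of Bmpr1b, was not found in the windows of Bmpr1a, Acvr2a and Acvr2b, and occurred in 66.2% of all windows. The letters GGCGCC, which BMP-responsive Smads can bind, were found for Bmpr1a, Bmpr2 and Tgfbr1, 1 time each, and in 9.6% of all windows. These are descriptions of the letters in the windows.

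Among the type I receptors of the activin and TGF-beta branch, Acvr1b and Acvr1c rose and Tgfbr1 did not pass. Acvr1b (chr15:101174067-101213684, plus strand), a receptor for activins and related ligands, had 173, 196, 194, 195 and 176 CPM in TdTomato+ and 102, 128, 130, 119 and 121 CPM in TdTomato- libraries. All TdTomato+ libraries were above all TdTomato- libraries, and the log2 fold change was 0.64 (s.e. 0.04, adjusted p = 1.2e-06).

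Acvr1c (chr2:58267453-58357895, minus strand), a receptor for nodal-related ligands and activin B, was much scarcer. Its levels were 6.89, 2.78, 2.87, 8.13 and 7.05 CPM in TdTomato+ libraries of mice 2 to 6, and 1.37, 2.04, 1.36, 1.43 and 1.32 CPM in TdTomato- libraries. The TdTomato+ libraries of mice 3 and 4 were the lowest of their population, yet above every TdTomato- library. The log2 fold change was 1.78 (s.e. 0.31, adjusted p = 6e-04), the largest increase among the receptors. It was 2.12 without mouse 3, so that 2 receptors rather than 1 then passed both thresholds. With any other single mouse left out it was 1.59 to 1.93. The log2 ratio of Acvr1b to Acvr1c was 6.25 in TdTomato- and 5.19 in TdTomato+ libraries, a difference of -1.06 ± 0.88 that was positive in 1 of 5 mice.

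Tgfbr1 (chr4:47353222-47414931, plus strand), the type I receptor for TGF-beta itself, had 133, 108, 96.8, 131 and 130 CPM in TdTomato+ and 104, 129, 140, 101 and 103 CPM in TdTomato- libraries. The TdTomato+ library was higher in mice 2, 5 and 6, by 0.36, 0.38 and 0.34 on the log2 CPM scale, and lower in mice 3 and 4, by -0.25 and -0.53. The log2 fold change over the 5 mice was 0.06 (s.e. 0.13, adjusted p = 0.69), and it was just under 0 when mouse 2, 5 or 6 was left out (-0.015, -0.0196 and -0.00232). The labels give no batch, litter or sex by which these mice could be divided. The neuronal markers of the TdTomato- libraries summed to 6720 and 6920 CPM in mice 3 and 4 and to 5880, 6270 and 6480 CPM in mice 2, 5 and 6. In the TdTomato+ libraries, where Acvr1 and Acvr1c of mice 3 and 4 lay apart from the others, these markers summed to 13800, 15100, 14400, 14400 and 13800 CPM in mice 2 to 6 and did not set mice 3 and 4 apart. The part of neuronal markers in the values of Acvr1, Acvr1c and Tgfbr1 was not tested.

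Among the type II receptors, Acvr2a rose, Acvr2b and Tgfbr2 fell, and Bmpr2 changed little. Acvr2a (chr2:48814109-48903269, plus strand) had 129, 173, 153, 168 and 97.8 CPM in TdTomato+ libraries of mice 2 to 6 and 72.7, 97, 100, 67.6 and 59 CPM in TdTomato- libraries. It was higher in the TdTomato+ library of every mouse, although the TdTomato+ level of mouse 6 was under the TdTomato- level of mouse 4. The log2 fold change was 0.86 (s.e. 0.09, adjusted p = 2e-05).

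Acvr2b (chr9:119402118-119434995, plus strand), its paralogue, had 37.5, 50.2, 52.3, 42.7 and 39.6 CPM in TdTomato+ and 69.9, 88.7, 84, 67.3 and 64.8 CPM in TdTomato- libraries. The populations did not overlap, and the log2 fold change was -0.75 (s.e. 0.05, adjusted p = 1e-06). The log2 ratio of Acvr2a to Acvr2b was 0.06 in TdTomato- libraries (range -0.13 to 0.25) and 1.68 in TdTomato+ libraries (range 1.3 to 1.98). The difference between the populations was 1.62 ± 0.26 (SD, n = 5), positive in every mouse, so the 2 genes had similar counts in TdTomato- libraries and unequal counts in TdTomato+ libraries. With 5 pairs an exact two-sided sign-flip test cannot give a p below 0.0625, and these ratios are therefore given as descriptions.

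Bmpr2 (chr1:59763400-59879014, plus strand), the type II receptor specific to BMPs, had 246, 277, 234, 279 and 233 CPM in TdTomato+ and 226, 247, 234, 228 and 215 CPM in TdTomato- libraries. The log2 fold change was 0.14 (s.e. 0.05, adjusted p = 0.02), and mouse 4 had the same level in both populations. The change kept its direction but no longer passed the edgeR test without mouse 3 (0.134, adjusted p = 0.062), without mouse 5 (0.103, adjusted p = 0.069) or with no mouse block (0.144, adjusted p = 0.054).

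Tgfbr2 (chr9:116084293-116175360, minus strand), the type II receptor for TGF-beta, was nearly undetected in TdTomato+ cells. It had 1, 0, 0, 1 and 1 counts in the TdTomato+ libraries of mice 2 to 6 and 81, 28, 30, 63 and 68 counts in the TdTomato- libraries, where it reached 3.17, 0.968, 1.2, 2.5 and 2.37 CPM. Summed over the 5 mice, 3 counts in TdTomato+ stood against 270 in TdTomato- libraries, a level 76.2-fold lower at these library sizes (exact binomial 95% interval 25.8 to 372, for counting error only). The fitted log2 change, -6.01 (s.e. 0.36, edgeR adjusted p = 4.4e-07), depends on the prior count and is not a bound. Every gene of the table had 0.501 CPM or more in at least 5 libraries. Tgfbr2 met this only through its TdTomato- libraries, so it could only come out as lower, and its test is no independent support. The microglial markers summed to 60, 13.1, 17.4, 45.2 and 51.7 CPM in the TdTomato- libraries of mice 2 to 6 and to 0.725 to 1.45 CPM in TdTomato+ libraries. The pericyte markers summed to 17.9, 13, 11.5, 17 and 18.8 CPM in the same TdTomato- libraries, against 1.02 to 3.04 CPM in TdTomato+ libraries. The erythroid markers summed to 109, 74.2, 103, 250 and 258 CPM, against 1.18 to 25.7 CPM. Mice 3 and 4 had the lowest TdTomato- values of Tgfbr2 and of these 3 lists. By the methods of the study, the meninges were taken off before the tissue was dissociated. The meningeal markers summed to 1.88, 2.9, 5.29, 2.5 and 1.92 CPM, highest in mice 3 and 4, and the endothelial markers to 3.56, 3.73, 2.61, 4.44 and 4.39 CPM. The part of these cells in the result was not tested. Tgfbr1, the partner of Tgfbr2, had 96.8 CPM or more in every TdTomato+ library.

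Levels of different genes were compared per kilobase of exonic length (RPKM). The length covers all annotated exons of a gene, 17983 bases for Bmpr2 and 4418 for Acvr1b. The order, sums and shares below depend on these lengths. In CPM, Bmpr2 had the highest mean, 254 in TdTomato+ and 230 in TdTomato- libraries, against 187 and 120 for Acvr1b. In RPKM, Acvr1b was the most abundant receptor in both populations, at 42.3 ± 2.52 in TdTomato+ and 27.1 ± 2.53 in TdTomato- libraries, above the next gene in every library. In TdTomato- libraries Acvr2b (19.1), Tgfbr1 (17.6), Bmpr1a (15.5), Acvr2a (13.9) and Bmpr2 (12.8 RPKM) followed, and the ranges of neighbours in this order overlapped. Acvr1 (8.58) and Bmpr1b (2.05 RPKM) were each clear of their neighbours, and Tgfbr2 (0.249) and Acvr1c (0.162 RPKM) came last with ranges that overlapped. In TdTomato+ libraries the order was Acvr1b, Acvr2a (25.4), Tgfbr1 (18.3), Bmpr2 (14.1), Acvr1 (13.1) and Acvr2b (11.3 RPKM), where neighbours from Acvr2a to Acvr2b overlapped. Bmpr1a (6.66), Bmpr1b (1.97), Acvr1c (0.597) and Tgfbr2 (0.00327 RPKM) came after, each clear of the next. By its mean Acvr2b stood next to Acvr1b in TdTomato- libraries, and Acvr2a took that place in TdTomato+ libraries, where it was above Tgfbr1 in 4 of 5 libraries. In the TdTomato+ library of mouse 6, Tgfbr1 (19.9 RPKM) was above Acvr2a (17.2 RPKM).

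The summed level of all 10 receptors was 134 ± 7.05 RPKM in TdTomato+ (127 to 144) and 117 ± 10.8 in TdTomato- libraries (108 to 130). These ranges overlapped, and the TdTomato+ sum was the higher in all 5 mice. The 3 type I receptors of the activin and TGF-beta branch summed to 61.2 ± 2.28 (59.1 to 65.1) against 44.9 ± 4.88 RPKM (39 to 51), with no overlap. The 3 BMP type I receptors summed to 21.7 ± 4.12 (16.6 to 25.8) against 26.1 ± 1.11 RPKM (24.6 to 27.3). These overlapped, and the TdTomato+ sum was the lower in all 5 mice, from 24.8 against 25.4 RPKM in mouse 2 to 18.1 against 27.3 RPKM in mouse 3. Type II receptors summed to 50.8 ± 7.55 against 46.1 ± 6.39 RPKM, also with overlap, and were higher in TdTomato+ libraries in all 5 mice. These sums are descriptions, with no test.

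Within these groups the composition differed. Bmpr1a made up 59.4% of BMP type I transcript in TdTomato- libraries (55.2 to 62.5%) and 31.5% in TdTomato+ libraries (25.4 to 37.3%). Acvr1 made up 32.8% (27.9 to 36.7%) and 59% (49.6 to 67.8%), so the leading BMP type I transcript was Bmpr1a in every TdTomato- and Acvr1 in every TdTomato+ library. Among type II receptors, Acvr2a went from 30% (26.5 to 33.8%) to 49.5% (42.7 to 52.9%) and Acvr2b from 41.4% (40.8 to 42.2%) to 22.4% (19.4 to 25.1%), whereas Bmpr2 had 28% and 28.1%.

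**Figure D3:**
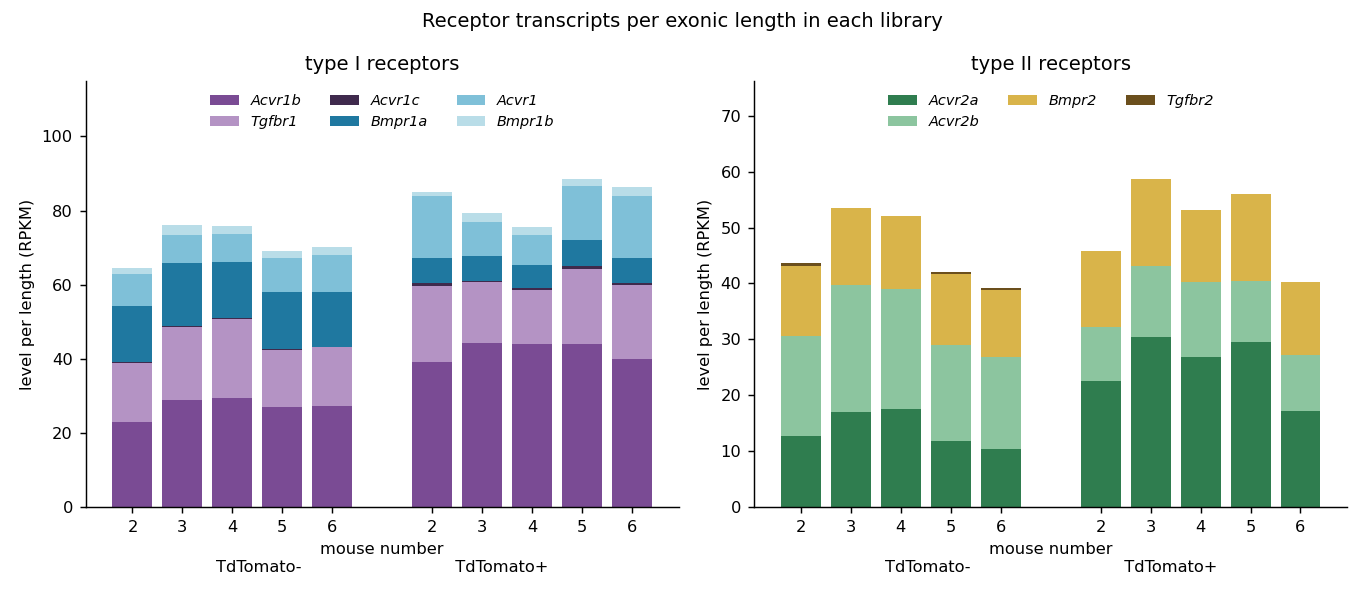
Receptor transcript per kilobase of exonic length (RPKM), stacked for each library, type I receptors on the left and type II on the right, with mouse numbers on the horizontal axis. In TdTomato+ libraries the purple Acvr1b segment is taller, Acvr1 replaces Bmpr1a as the larger BMP type I segment, and Acvr2a takes more of the type II bar than Acvr2b.

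The genes whose profile over the 10 libraries was most like that of a receptor were sought among those with a mean log2 CPM of at least 3, by the root mean square difference of mean-centred log2 CPM. They were Rpa1 (0.0616) and Rad21 (0.066) for Bmpr1a, Rnf152 (0.13) and Nap1l3 (0.135) for Acvr2a, Kif26a (0.315) and Khdrbs2 (0.316) for Acvr1c, and Abca1 (0.219) and Tns3 (0.329) for Tgfbr2. Each of these genes differed between the populations in the direction of its receptor, which followed from their selection over the same 10 libraries. The profile of Tgfbr2 in TdTomato+ libraries was set by the prior count of 2.

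The rest of the pathway was read from lists of genes by role. The counts in each list stand beside the 37.9% of all genes that were higher and the 39.4% that were lower. Of 18 BMP and GDF ligands, 5 were in the table, of which 2 rose, 1 fell and 2 did not pass, with a median log2 fold change of 0.22. Bmp2 and Bmp4, which the study names with Bmp7 as ligands antagonised by Grem1, were not in the table. Bmp3, a ligand that can oppose other BMPs, rose from 4.96 ± 0.592 to 33.3 ± 8.95 CPM (2.72, s.e. 0.11, edgeR adjusted p = 4.4e-08). Gdf10 rose by 1.69 on the log2 scale, and Bmp7, a ligand of Acvr1, Bmpr1a and Bmpr1b, had a log2 fold change of -2.68. Of 15 activin, TGF-beta and related ligands, 8 were in the table, with 1 higher and 5 lower (median -0.48). Inha, the inhibin alpha subunit, rose by 1.28. Tgfb1, Tgfb2 and Tgfb3, the ligands of Tgfbr2, all fell. Tgfb1 had 1 to 3 counts in each TdTomato+ library, in sum 10 against 197 in TdTomato- libraries, and was 16.7-fold lower (exact binomial 95% interval 8.88 to 35.3, for counting error only). Like Tgfbr2, Tgfb1 was in the table only through its TdTomato- libraries. Tgfb2 and Tgfb3 had log2 fold changes of -2.44 and -1.94.

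Of 16 extracellular antagonists, 10 were in the table, with 2 higher and 5 lower against 37.9% and 39.4% of all genes (median -0.85). Grem1 (3.37, s.e. 0.07, edgeR adjusted p = 1.8e-09) and Chrd (1.07), which encodes the BMP antagonist chordin, rose, and Bmper (-3.98), Nbl1 (-1.70) and Fstl1 (-1.64) fell. The sort selected for Grem1 activity, so the increase of Grem1 is no independent finding. Of 11 coreceptors and other receptors of the family, 6 were in the table, with 1 higher and 3 lower (median -0.26). The receptors Acvrl1 and Amhr2 of this list were not in the table. Neo1, a receptor that works with the BMP coreceptors of the RGM family, rose by 0.74. Eng (-1.15), a TGF-beta coreceptor, Bambi (-1.10), a pseudoreceptor without a kinase, and Rgmb (-0.41), a BMP coreceptor, fell.

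Inside the cell, 5 of 6 receptor-regulated and common Smads were in the table, and 1 rose and 4 fell (median -0.22). Of the Smads on which the BMP receptors act, Smad1 rose by 0.38 and Smad5 fell slightly (-0.12, s.e. 0.04, edgeR adjusted p = 0.022). Of those on which the activin and TGF-beta receptors act, Smad3 had -1.69 and Smad2 had -0.22. Smad4, the common partner, had -0.25. All 15 inhibitors and adaptors of receptors and Smads were in the table, with 8 higher and 7 lower against 37.9% and 39.4% of all genes (median 0.15). Zfyve16 (0.54), Smurf1 (0.49), a ubiquitin ligase, and Zfyve9 (0.41), which brings Smads to receptors, rose. Smad6 (-2.54) and Smad7 (-0.48), the inhibitory Smads, and Xiap (-0.39) fell.

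Of 11 BMP target genes, 10 were in the table, with 1 higher and 8 lower against 37.9% and 39.4% of all genes (median -2.08). Id1, Id3 and Id4, which encode inhibitors of basic helix-loop-helix factors, had log2 fold changes of -3.06, -4.31 and -3.46. Id2 of the same family rose from 109.5 ± 21.2 to 324 ± 47.5 CPM (1.57, s.e. 0.05, edgeR adjusted p = 1.5e-08). Of 8 TGF-beta and activin target genes, 6 were in the table, with 1 higher (Skil, 0.41) and 5 lower (median -0.61), led by Ccn2 (-3.50), Tgif1 (-2.58) and Col4a1 (-0.74). Smad6, Smad7, Bambi and Skil stand in more than one of these lists. Progenitors express many of these targets, progenitor markers were lower in the same libraries, and their part in these values was not tested.

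**Figure D4:**
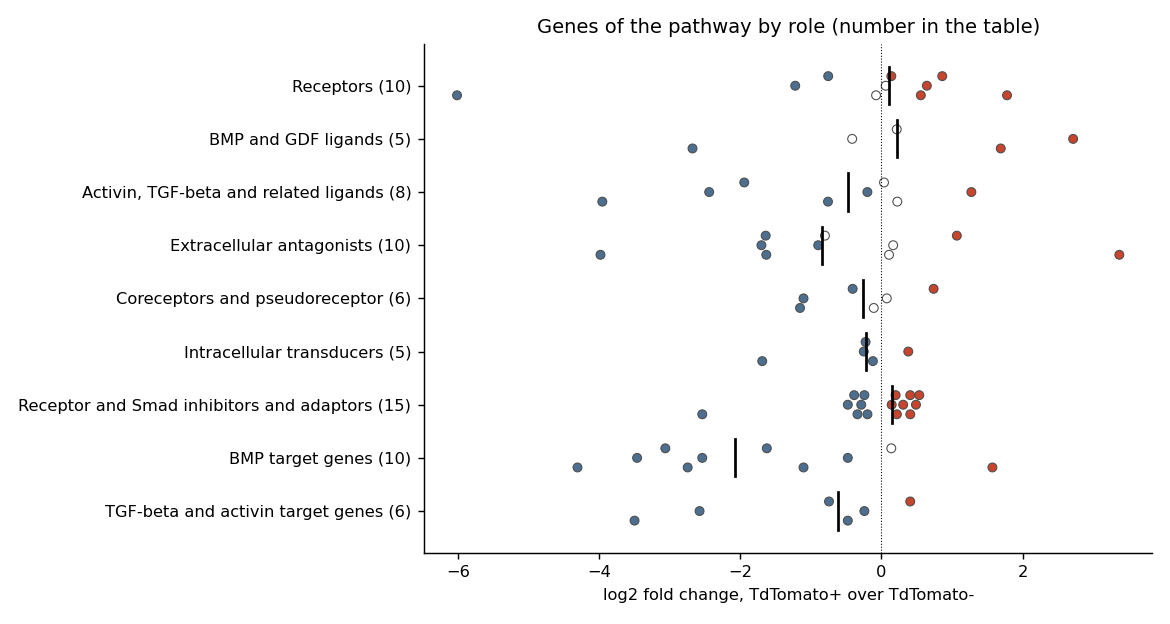
Log2 fold change, TdTomato+ over TdTomato-, of every measured gene of the pathway by role, with the number of genes in parentheses (red higher, blue lower, open not past the threshold). The black bar is the median of each row, which is 0.10 for receptors and -2.08 for BMP targets.

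Part of the exonic length of 3 receptors overlaps a gene on the opposite strand, 7.84% for Acvr2a (Orc4), 4.57% for Bmpr1a (Gm17110) and 1.81% for Acvr1c (Gm13544), and reads there could belong to either gene if the counting did not use strand.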

How the data were processed

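Live TdTomato+ and TdTomato- cells were sorted from the brain (dorsal telencephalon in the methods of the study) 24 h after tamoxifen at 13.5 dpc, and polyadenylated RNA was sequenced. The library kit, sequencer and read length differ between the labels and the methods and are not settled here. The authors trimmed reads, aligned them with STAR 2.4.2a to GRCm38 with at most 1 mismatch, kept unique alignments, and deposited raw counts for 14300 genes. Each of these genes had 0.501 CPM or more in at least 5 libraries, and genes with lower counts were already absent. Shares of all genes, and counts of genes in the table, refer to this set. The submitters' notes also name edgeR 3.28.0. The annotation release and strand column are not given in the sources used here. The methods mention that outliers were removed, and all 10 deposited libraries were used.

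The fit to the counts was made in R 4.3.3 with edgeR 4.0.16 (filterByExpr, which removed no gene, TMM, glmQLFit and glmQLFTest, mouse as a block, prior count 0.125), and p-values were adjusted by Benjamini-Hochberg over 14300 genes. The threshold was 0.05 and, where stated, a log2 fold change of 2 in size. The methods describe paired comparisons. Deviations from the group means correlated at 0.186 to 0.316 between libraries of the same number and at -0.312 to 0.212 between others. CPM used TMM-scaled totals, log2 CPM a prior count of 2, and RPKM the exonic length in GENCODE vM21. Where TdTomato+ libraries had 3 counts or fewer, the ratio of summed counts per TMM-scaled total is given with an exact binomial interval. Promoter windows were those of RefSeq on GRCm38.p6, and motifs were counted on both strands. Replicate libraries of a population differed by more than sampling noise (chi-square per degree of freedom 4.46 to 32). The fit was tested on simulated data. Alternatives were RLE and upper-quartile scaling, DESeq2 1.42.0, dropping the filter or raising it to above 1 CPM in 5 or more libraries, leaving out the block, TREAT, other prior counts, robust estimation and leaving out each mouse.

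The members and lists were chosen with earlier results of these data known. All receptors are named, and for each list up to 3 genes with the largest increase and 3 with the largest decrease, plus Grem1 and Id1. Smad5 was named after its value was seen. The 2 most similar genes are given for the 4 receptors with the largest changes.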

Additional observations from a re-analysis of the deposited data

Results flagged for a closer look

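Acvr1c in the TdTomato- library of mouse 3 stood apart from the other 4 libraries of that population, at a log2 CPM of 1.08 against 0.49 to 0.59. Its gap to the nearest library was 0.829 of the range of the population, above the 95% critical value for 5 libraries. It was the only one of 24 sets of values examined that stood apart in this way, and chance would give about 1.2.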

How the results depend on the processing

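Of 226 values recomputed under the alternatives, 218 kept their direction and their side of the threshold, or stayed within the spread set for them. The number of receptors past both thresholds was 1 to 2 when single mice were left out, with 2 without mouse 3, where Acvr1c joined Tgfbr2. Bmpr2 was no longer past the threshold without mouse 3 (0.134), without mouse 5 (0.103) or with no mouse block (0.144). Tgfbr1, which did not pass, changed sign without mouse 2 (-0.015), mouse 5 (-0.0196) or mouse 6 (-0.00232), and its log2 fold changes with single mice left out ran from -0.0196 to 0.207. The difference between populations in the log2 ratio of Tgfbr1 to Tgfbr2 was 4.26 with a prior count of 2 and 5.58 with 0.5, since Tgfbr2 had at most 1 count in TdTomato+ libraries. With no replicate block, edgeR called 4 receptors higher and 3 lower, so the pairing changed the call of Bmpr2 and of no other receptor. In that fit 4 rather than 5 genes were lower among both the activin and TGF-beta ligands and the TGF-beta and activin targets. The log2 fold changes of Bmpr1a, Acvr2a and Acvr2b ranged over all alternatives from -1.24 to -1.19, 0.75 to 0.926 and -0.778 to -0.719. That of Tgfbr2 ranged from -6.24 to -4.28, and its size is poorly determined at 0 or 1 counts in TdTomato+ libraries. The scalings moved the median log2 fold change of all genes to no lower than -0.025.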
